A study of Mus musculus with 35 samples.

Results

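The genes described here, Tubb3, Tuba1a, Dcx, Map1b, Mapt, Stmn1, Stmn2, Gap43, Ina and Dpysl3, encode the neuronal cytoskeleton and proteins of the growth cone. They were chosen by name as 10 of the 53465 genes listed in the bulk table, by matching Ensembl identifiers to symbols. All 10 were found, all 10 passed the filter on low values in bulk (a mean of at least 10 normalized counts), and all 10 were also among the 24262 genes of the single-cell tables. The study sorted E14.5 mouse brains by surface proteins into neural (negative for every marker used), mural (PDGFRb high), endothelial (PECAM1 and CD102 high) and microglial cells (CD45 medium and CD11b positive for bulk, while the single-cell wells are labelled CD41 positive, CD45 medium). Bulk RNA-seq covered 3 brains for each of the 4 populations (12 libraries, titled N-, Mu-, Ec- and Mi- for the population and by brain, such as N-340, N-343 and N-346). Values are given in that order of brains. Single cells of the 4 populations were sequenced by mCEL-Seq2, which counts 3′ ends with molecular identifiers, on wild-type plates 1 to 3 with a sort gate for each well except 37, from which no cell was kept. Plates 4 to 6 came from brains labelled Mof Knockout and carried no gate. Mof (Kat8) is a histone acetyltransferase, and the allele, Cre driver and strain were not given in the sources used here. RNA and libraries of the neural bulk population were prepared with other kits (Qiagen mini kit and Illumina TruSeq) than those of the remaining populations (Qiagen miRNeasy Micro kit, SMART-Seq v4 and Nextera XT), so that kit and population cannot be told apart in any bulk comparison of neural cells with other cells.

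As background, microtubules are polymers of alpha- and beta-tubulin, and a young neuron builds a particular set of them as it leaves the cell cycle, migrates and extends an axon. Doublecortin (Dcx), tau (Mapt) and MAP1B bind and stabilise the polymer, stathmins (Stmn1, Stmn2) bind free tubulin dimers and promote disassembly, and CRMP family proteins such as Dpysl3 link the cytoskeleton to guidance cues. GAP-43 lies under the growth cone membrane, and alpha-internexin (Ina) is the neuronal intermediate filament that appears before the neurofilament triplet.

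Of the 10 genes, 5 had a promoter entry in the RefSeq table for GRCm38.p6, and the 250 bases before the start annotated by RefSeq are shown because these genes were higher in the neural libraries together, with the exception of Map1b described below. In GRCm38 (GENCODE vM21) the genes themselves lie at chr8:123411424-123422015 (Tubb3), chr15:98949837-98953703 (Tuba1a), chrX:143855842-143933311 (Dcx), chr13:99421446-99516540 (Map1b) and chr19:47014698-47025327 (Ina). Capitals mark matches on either strand to the GC box core GGGCGG, to the CCAAT box, to the TATA motif TATAAA and to the palindromic E-box CAGCTG, and no marked matches overlap. GENCODE starts Tubb3, Tuba1a and Dcx further upstream than RefSeq, so that 129, 202 and 92 of the 250 bases of their windows lie inside the GENCODE gene, and those of Map1b and Ina lie outside. The windows were chr8:123411303-123411552 on the plus strand for Tubb3, chr15:98953502-98953751 on the minus strand for Tuba1a, chrX:143933220-143933469 on the minus strand for Dcx (the upstream of its pair of listed starts), chr13:99516603-99516852 on the minus strand for Map1b and chr19:47014431-47014680 on the plus strand for Ina.
Tubb3: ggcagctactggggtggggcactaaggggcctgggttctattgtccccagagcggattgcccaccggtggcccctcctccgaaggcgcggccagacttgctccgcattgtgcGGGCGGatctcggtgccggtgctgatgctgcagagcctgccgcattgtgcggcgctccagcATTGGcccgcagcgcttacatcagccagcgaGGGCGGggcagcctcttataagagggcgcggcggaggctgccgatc
Tuba1a: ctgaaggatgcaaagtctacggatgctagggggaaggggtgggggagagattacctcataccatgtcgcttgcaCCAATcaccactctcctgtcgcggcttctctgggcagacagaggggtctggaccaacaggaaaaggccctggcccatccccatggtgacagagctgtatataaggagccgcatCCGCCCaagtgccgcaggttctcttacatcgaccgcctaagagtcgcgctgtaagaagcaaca
Dcx: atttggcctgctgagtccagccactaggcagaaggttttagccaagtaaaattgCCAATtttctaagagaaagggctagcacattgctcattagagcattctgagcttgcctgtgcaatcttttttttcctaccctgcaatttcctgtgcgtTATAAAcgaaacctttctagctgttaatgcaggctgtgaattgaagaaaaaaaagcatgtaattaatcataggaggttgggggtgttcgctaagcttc
Map1b: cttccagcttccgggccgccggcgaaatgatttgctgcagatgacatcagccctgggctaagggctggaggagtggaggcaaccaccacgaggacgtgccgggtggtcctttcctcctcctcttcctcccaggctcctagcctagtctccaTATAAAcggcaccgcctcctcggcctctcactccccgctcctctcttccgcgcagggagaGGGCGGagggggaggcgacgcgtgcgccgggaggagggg
Ina: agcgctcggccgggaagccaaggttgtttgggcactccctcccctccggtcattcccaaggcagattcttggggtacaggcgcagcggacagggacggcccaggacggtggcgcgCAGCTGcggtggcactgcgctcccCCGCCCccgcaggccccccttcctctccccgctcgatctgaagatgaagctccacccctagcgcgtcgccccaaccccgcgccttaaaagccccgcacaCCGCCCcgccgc

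The Tubb3, Map1b and Ina windows were rich in G and C (68.0%, 66.4% and 70.8%) with 21, 19 and 25 CpG dinucleotides, and Tuba1a was intermediate (56.8%, 11 CpG). The Dcx window was poor in both (41.6%, 3 CpG). The median over all 32851 windows of this length was 52.4% and 6 CpG. GGGCGG occurred in 4 of the 5 windows (not in Dcx) and in 32.7% of all windows. CCAAT occurred in Tubb3, Tuba1a and Dcx and in 33.8% of all windows, TATAAA in Dcx and Map1b and in 12.4% of all, and CAGCTG in Ina and in 4271 of the 32851 windows. These matches describe letters in a window and not factor binding.

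Bulk depth ranged from 17638358 to 98414914 reads on genes per library. Single-cell sums of a gate and plate held 50756 to 959426 transcripts. The sorted identities were checked on marker lists that contain none of the 10 genes. Of 12 general neural markers, 11 were highest in the neural libraries, as were all 24 young-neuron markers. Of 12 neural progenitor markers, 7 were highest in neural and 4 in mural libraries, and their sum in mural libraries (59026 to 78311 normalized counts) was 131% of the neural mean. Of the mural and endothelial markers, 10 of 11 each were highest in their own population, as were 11 of 11 microglial markers. Young-neuron markers were not at 0 in any population: their summed level was 133226 to 142590 normalized counts in neural libraries, 6264 to 9348 in mural, 4574 to 6657 in endothelial and 2956 to 4327 in microglial libraries, which is 5.39%, 4.23% and 2.66% of the neural mean. Summed erythroid markers were 13281 to 34539 in endothelial, 9124 to 11922 in neural, 1696 to 2209 in microglial and 253 to 598 in mural libraries. Summed fibroblast markers were 8873 to 11803 in mural libraries and at most 269.8 elsewhere. The part of these foreign markers in the levels below was not tested.

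The neural population was compared with the others to see how far these genes belong to it. In bulk, 9 of the 10 genes were higher in the neural libraries than in the mean of the other 3 populations (limma, Benjamini-Hochberg adjusted p below 0.05 over 19765 genes), against 32.9% of all genes tested, and none was lower, against 31.2%. The largest differences on the log2(normalized count + 1) scale were those of Ina (6.47), Mapt (6.11) and Dcx (5.94), followed by Tubb3 (5.15), Dpysl3 (4.76), Stmn2 (4.00), Gap43 (3.14), Tuba1a (2.92) and Stmn1 (1.22). Map1b differed by 0.52 ± 0.26 (SE) and did not pass (adjusted p = 0.0971), though some of the alternatives given at the end called it higher. The median over the 10 was 4.38, beside 0.09 over all genes. For each of the 9, every neural library lay above every other library, as it did for 25.2% of all genes tested. An exact two-sided permutation test of 3 against 9 libraries gave p = 0.00909 for each, the smallest that it can give, and p = 0.582 for Map1b. This test does not pair libraries by brain, and for the 9 genes its value follows from the order just given. The labels give 1 sample per brain and population, so the spread below is between brains.

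**Figure D1:**
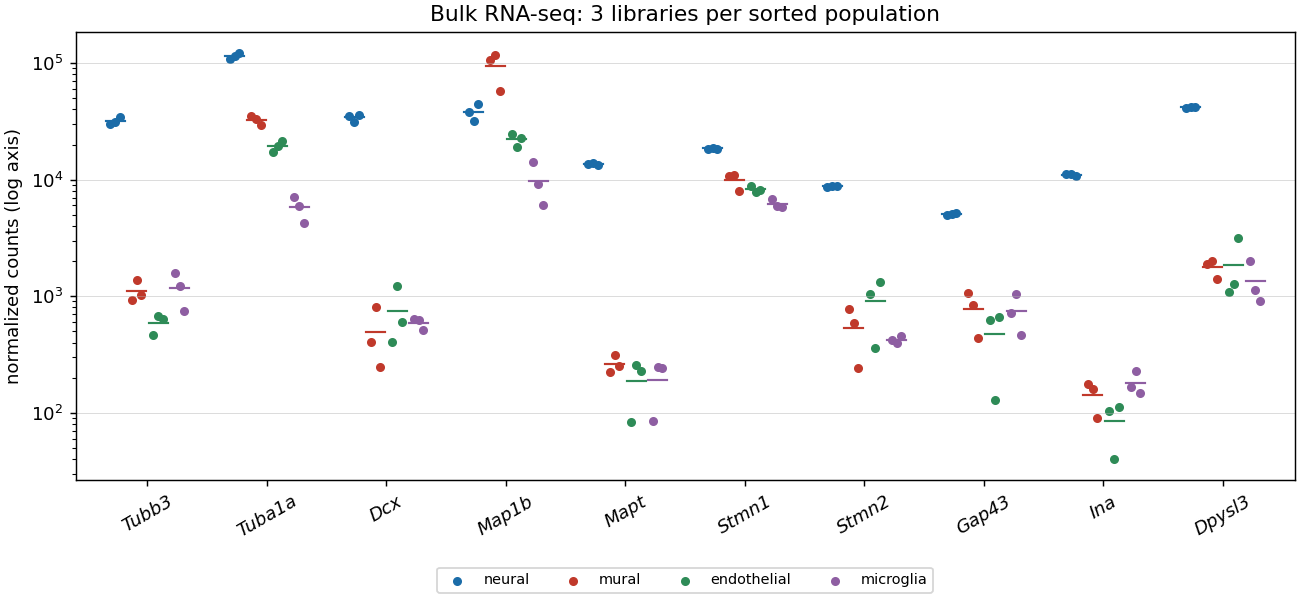
Normalized counts (log axis) of the 10 genes in 12 bulk libraries, with a point for each brain and a bar at the mean of each sorted population. The neural points lie above all others except for Map1b, whose mural libraries (57911 to 118179) lie above its neural libraries (31997 to 44332).

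Tuba1a, the main alpha-tubulin of embryonic neurons, stood at 108659, 114595 and 122934 normalized counts in the neural libraries N-340, N-343 and N-346. It stood at 34828, 32985 and 29675 in mural, 17379, 19346 and 21469 in endothelial, and 7141, 5946 and 4255 in microglial libraries. The 4 populations did not overlap, and neural was 1.83 above mural on the log2 scale (adjusted p = 4.32e-06) and 2.58 above endothelial (adjusted p = 3.45e-07, limma). Tuba1a is nearly identical to Tuba1b and Tuba1c, so the split of reads among the copies is uncertain. Tubb3, the beta-tubulin class of neurons, had 30178, 31328 and 34478 in neural libraries, 928, 1373 and 1027 in mural, 464, 671 and 638 in endothelial and 1584, 1226 and 743 in microglial libraries. Its neural mean was 33.3 times the mean of the other 9 libraries, and the fitted log2 value differed by 5.15 ± 0.22 (SE, adjusted p = 1.54e-08, limma). Mural Tubb3 was 3.47%, endothelial 1.85% and microglial 3.70% of the neural mean.

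Among the microtubule-binding proteins, Dcx had 35360.3, 31489 and 35892 normalized counts in the neural libraries. The other libraries held between 247 (Mu-346) and 1211 (Ec-343), and no 2 of these populations were separated. Mapt was 13679 ± 238 (SD, n = 3) in neural libraries, where its spread was small, and 83.3 to 314 elsewhere. Dcx and Mapt fitted differences were 5.94 ± 0.35 (SE, adjusted p = 1.60e-07) and 6.11 ± 0.39 (SE, adjusted p = 2.72e-07, limma).

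Map1b did not follow them. It stood at 37943, 31997 and 44332 in neural libraries and at 105621, 118179 and 57911 in mural libraries, then at 24644, 18993 and 22715 in endothelial and 14206, 9162 and 6044 in microglial libraries. The mural libraries are also those with the fibroblast and neural progenitor markers given above, whose part in this was not tested. Every mural library was above every neural library, and neural Map1b was lower than mural by 1.25 on the log2 scale (SE 0.31, adjusted p = 0.00618, limma). That call was lost after quantile normalization, where the difference was -0.45 (adjusted p = 0.223). In all 3 brains the neural value was below the mural one, by 1.48, 1.88 and 0.39. Map1b was the only 1 of the 10 called lower in that comparison, in which 9 were called higher, against 25.8% and 28.7% of all genes. Against endothelial libraries 9 genes were higher and none lower (30.6% and 27.1% of all genes), and Map1b differed by 0.78 (adjusted p = 0.0533) and was called with the brain as a block (adjusted p = 0.0445), with scaling to library totals (1.06, adjusted p = 0.00646) and after quantile normalization (1.47, adjusted p = 0.00139). Against microglial libraries all 10 were higher and none lower (30.4% and 29.3% of all genes), with Map1b at 2.03 (adjusted p = 0.000232, limma).

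The stathmins differed from each other. Stmn1, which dividing cells also use, was 18190, 18813 and 18484 in neural libraries, 10720.3, 11026 and 8029.5 in mural, 8755, 7829 and 8158 in endothelial and 6845, 5976 and 5789.9 in microglial libraries. These levels put mural at 53.7%, endothelial at 44.6% and microglia at 33.5% of the neural mean. Stmn2, a neuronal growth protein of the same family, was 8564 to 8889.7 in neural libraries and 242 to 1330.2 elsewhere. Stmn2 varied among endothelial libraries (1035, 358 and 1330.2), and so did Gap43 (620.2, 129 and 658), with Ec-343 lowest for both. Gap43 was 5085 ± 92.1 (SD, n = 3) in neural libraries and at most 1059 elsewhere, apart by 3.14 ± 0.47 (SE, adjusted p = 0.000175, limma).

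The CRMP family member Dpysl3 was among the most abundant of the set, at 41302 to 42182 in neural libraries and 906 to 3176 elsewhere. The highest of the other libraries was Ec-346. Ina had the widest separation, at 11244, 11069 and 10766 in neural libraries against 39.7 to 229 in the others, apart by 6.47 ± 0.34 (SE, adjusted p = 5.81e-08, limma).

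Per kilobase of exon (GENCODE vM21), the neural levels were ordered Tuba1a (64002 normalized counts per kb), Tubb3 (17128), Stmn1 (9623), Dpysl3 (6334), Ina (3403), Gap43 (3339), Dcx (2708), Map1b (2404), Mapt (1816) and Stmn2 (1559). The neighbours Ina and Gap43, and Dcx and Map1b, overlapped between brains, and the other neighbours did not. In mural libraries Map1b stood at 5926 per kb, next to Stmn1 (5164), with which it overlapped between brains, and below Tuba1a (18023).

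The other populations were then compared with each other, where all libraries share a kit. Mural libraries were higher than endothelial ones in Map1b (2.03 on the log2 scale, adjusted p = 0.000739), Tubb3 (0.90, adjusted p = 0.0271) and Tuba1a (0.75, adjusted p = 0.0057, limma), which makes 3 of 10 against 13.5% of all genes, and lower in none, against 14.3%. The Tubb3 call was lost without Mu-343 (adjusted p = 0.0942) or Ec-340 (adjusted p = 0.0807). Mural libraries were higher than microglial ones in Map1b (3.28), Tuba1a (2.52) and Stmn1 (0.67), against 17.9% of all genes, and lower in none, against 20.1%. Endothelial libraries were higher than microglial ones in Tuba1a (1.77), Map1b (1.25) and Stmn1 (0.41), against 15.3%, and lower in Tubb3 (-0.95) and Ina (-1.19, adjusted p = 0.0465), against 17.0%. Of these calls, that of Tubb3 was lost without Ec-340 (adjusted p = 0.0608), Mi-340 (0.0687) or Mi-343 (0.06), and that of Stmn1 without Ec-340 (0.0697), Ec-346 (0.0506), Mi-343 (0.0767) or Mi-346 (0.075), or with edgeR on reads recovered from the table (0.40, adjusted p = 0.0698). The Ina call was lost without any 1 of 9 libraries, with adjusted p up to 0.144 (without Mi-343), and its difference was -0.73 without Ec-343. Tuba1a, Map1b and Stmn1 therefore had the same order of means, mural above endothelial above microglia. Dcx, Mapt, Stmn2, Gap43 and Dpysl3 were not called between any 2 of these populations.

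The companion genes of the same pathways showed how far this reached, by the same bulk test of neural libraries against the rest, in which 32.9% of all genes were higher and 31.2% lower. Of 13 tubulins, 12 were tested, 6 were higher and 2 lower, with a median difference of 0.57. Higher were Tubb2b (4.84), Tubb4a (3.81), Tubg2 (2.80), Tuba4a (2.04, adjusted p = 0.0774 after quantile normalization), Tubb2a (1.15) and Tubb5 (0.80). Tuba4a and Tubg2 were not highest in the neural libraries: Tuba4a was at a mean of 573 normalized counts in microglial and 279 in neural libraries, and Tubg2 at 343.2 in mural and 249.9 in neural libraries. Lower were Tubb6 (-6.64), a beta-tubulin of non-neuronal cells with 55.7 normalized counts in neural and 8464 in endothelial libraries, and Tubg1 (-0.32, adjusted p = 0.639 after scaling to library totals). Tubb4b (0.33, called with scaling to library totals, adjusted p = 0.00564), Tuba1b (-0.16), Tuba1c (-0.19) and Tubb1 (-1.75) did not pass, and Tuba8 was below the filter.

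Of 6 stathmin and CRMP relatives, 5 were higher: Dpysl5 (7.92), Dpysl4 (7.89), Stmn4 (4.71), Crmp1 (4.25) and Stmn3 (4.22). Dpysl2 (CRMP2) was lower by the same test (-2.02, adjusted p = 3.59e-07), with means of 5937 normalized counts in neural, 26546 in mural, 16139.8 in endothelial and 33674 in microglial libraries. Of 19 further microtubule-associated proteins, 16 were higher and 2 lower. Camsap3 (7.84) and Map6 (5.55) were at the top, Map7 (-3.39) and the plus-end protein Mapre1 (-0.70) at the bottom. Of 8 intermediate filament genes, 5 were higher and none lower. The neurofilaments Nefl (6.39) and Nefm (3.61) led, and muscle Des (-1.87, adjusted p = 0.0566) and astroglial Gfap (-0.60, adjusted p = 0.719) stood lowest.

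Growth cone membrane and adhesion genes were higher in 12 of 13 cases, with the axonal adhesion molecules Cntn2 (9.85) and Nrcam (9.25) at the top. Marcksl1 (1.58) was the lowest of those called, and Marcks (-0.07) did not pass, though it was higher (0.60, adjusted p = 0.00849) after quantile normalization. Growth cone actin regulators were divided, 7 higher and 6 lower of 14, from Shtn1 (5.59) and drebrin, Dbn1 (3.98), down to profilin, Pfn1 (-4.09), and thymosin, Tmsb4x (-3.04). Motors and dynein regulators were higher in 12 and lower in 3 of 16: the neuronal kinesins Kif5a (7.14) and Kif5c (6.18) were higher, and the ubiquitous Kif5b (-1.36) and Ndel1 (-1.20) lower. Of 17 genes for tubulin folding, modification and severing, 12 were higher and 4 lower, with Vash1 (5.95) and Ttll7 (4.00) highest and Svbp (-1.88) and Tbcc (-1.44) lowest. All 14 kinases and phosphatase subunits that act on tau and other microtubule proteins were higher than the mean of the others, from Brsk1 (8.78) and Cdk5r2 (8.19) down to Mark2 (0.85) and Gsk3b (0.52), and 10 of the 14 were higher than in mural libraries alone (against 28.7% of all genes). Gsk3b was at a mean of 12430.4 normalized counts in mural and 11122 in neural libraries. Of the 89 companion genes called higher over all lists, 12 had a higher mean in another population.

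The genes most like the set over the 12 bulk libraries, by Pearson correlation with the mean of the 10 standardised profiles, were Ncan (0.99), Pou3f3 (0.99), Tubb2b (0.989), Trim44 (0.988) and Rmnd5a (0.988). The 10 genes themselves had correlations of 0.902 to 0.978 with that mean, apart from Map1b at 0.423. The 12 points share 4 sorted populations and 2 library kits, and these values are descriptive.

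In the single cells of the wild-type plates, 123 neural, 210 mural, 225 endothelial and 128 microglial cells held more than 1500 transcripts, with medians of 7717, 6885, 6408 and 10761. Their transcripts were summed by gate and plate and tested across plates with edgeR, and levels are given as CPM (counted transcripts of a gene per-million transcripts of the sum). All 10 genes, Map1b included, were higher in the neural gate than in the mean of the other gates, against 22.5% of 9281 genes tested, and none was lower, against 17.3%. All 10 were also higher than in the mural, the endothelial and the microglial gate one by one, against 17.7%, 18.1% and 23.2% of all genes (15.4%, 18.3% and 21.2% were lower). For all 10 genes the lowest neural plate was above the highest plate of any other gate, against 11.9% of all genes tested. Against the mural gate, the log2 differences were Gap43 5.75, Stmn2 5.42, Dcx 4.85, Tubb3 4.71, Dpysl3 4.52, Mapt 4.18, Ina 4.13, Map1b 2.48, Stmn1 2.21 and Tuba1a 1.28. The Tuba1a call against the mural gate was lost without plate 1 (adjusted p = 0.147) or plate 2 (adjusted p = 0.124).

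**Figure D2:**
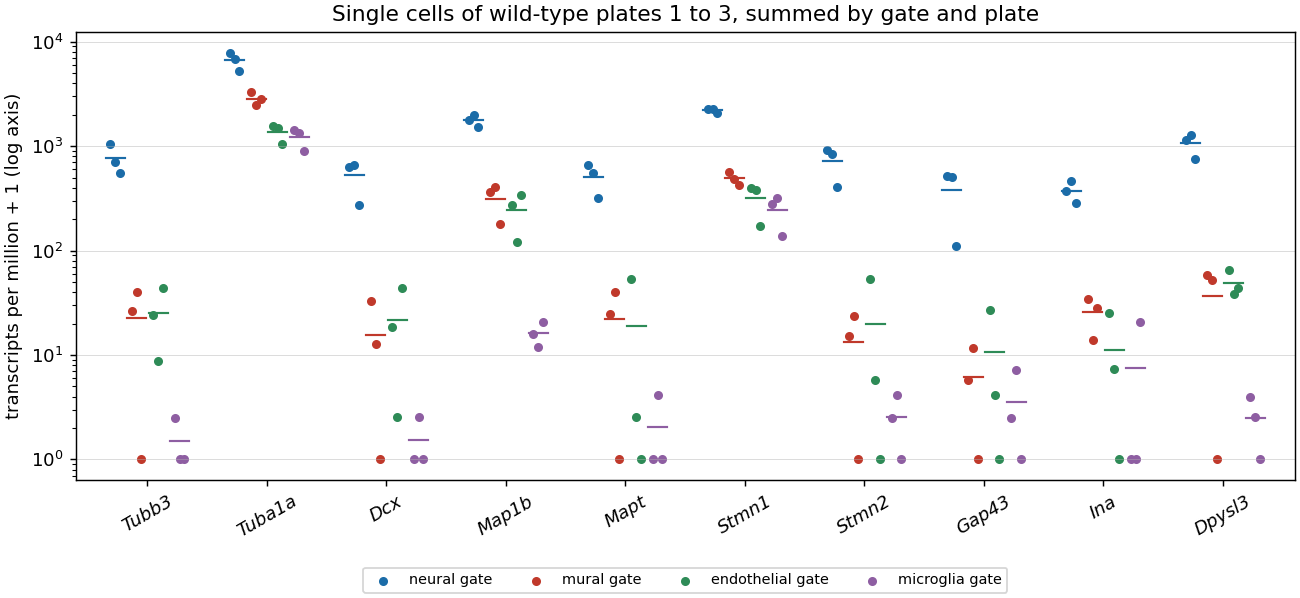
CPM plus 1 (log axis) of the 10 genes, with a point for each of plates 1 to 3 and a bar at their mean for each sort gate. Neural points lie above all others for every gene, and points at the bottom of the axis are plates with no transcript of the gene.

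Tubb3 stood at 1041, 704 and 548 CPM in the neural gate of plates 1, 2 and 3, at 25.3, 39.0 and 0 in the mural gate, at 22.9, 7.86 and 42.8 in the endothelial gate and at 1.48, 0 and 0 in the microglial gate. Plate 3 held few cells (14, 10, 13 and 6 in these gates), so that 3 transcripts there are worth 32.8 to 59.1 CPM. Gap43 was at 519, 505.5 and 109.5 in the neural gate, low on plate 3, and at most 26.1 in any other. Tuba1a was at 7865, 6783 and 5227 in the neural gate and stayed abundant elsewhere: 2459 to 3276 in mural, 1041 to 1555 in endothelial and 888 to 1421 in microglial sums. Stmn1 was at 2064 to 2277 in the neural gate, and 426 to 570.5 in mural, 171 to 394 in endothelial and 138 to 320.3 in microglial sums.

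Map1b was at 1768, 2006 and 1525 CPM in the neural gate, 359.8, 401 and 179 in the mural gate, 274, 121 and 342 in the endothelial gate and 14.8, 10.9 and 19.7 in the microglial gate. Neural was above mural by 2.48 ± 0.36 (SE, adjusted p = 7.73e-08, edgeR), and by 2.27, 2.30 and 3.02 on the 3 plates (log2 of CPM + 10). The bulk difference had the opposite sign in every brain. The difference between the assays was not tested, since they share no scale, and they also differ in priming and in the kit of the neural bulk libraries. The labels name no brain for the single-cell plates, so whether the animals were the same is not known from them. Within the same bulk kit, mural Map1b was 2.03 above endothelial. The single-cell difference was 0.32 (adjusted p = 0.644), and it was 0.38, 1.65 and -0.90 by plate. Without plate 3 (10 mural and 13 endothelial cells) it was 0.85 and called (adjusted p = 0.00331, edgeR). For the other 9 genes neural was above mural in all brains and on all plates.

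**Figure D3:**
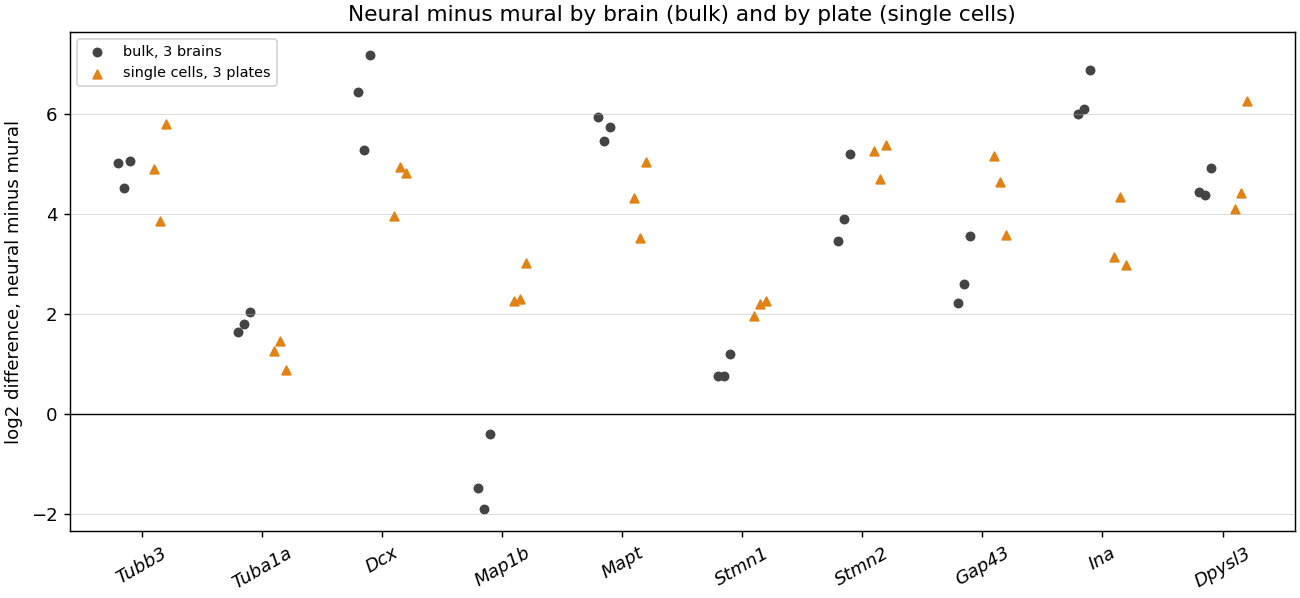
Neural minus mural log2 difference of the 10 genes, by brain for bulk (log2 of normalized count + 1, circles) and by plate for single cells (log2 of CPM + 10, triangles). Map1b lies between -1.88 and -0.39 in bulk and between 2.27 and 3.02 in single cells.

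Between the mural and endothelial gates no gene of the set was called by edgeR in the single cells, against 9.17% of all genes higher and 11.5% lower. Only Tuba1a reached an unadjusted p below 0.05 there (0.85, adjusted p = 0.0739), and DESeq2 called it (0.86, adjusted p = 1.42e-05). It was also called by edgeR with the plate as a block (0.85, adjusted p = 0.00114), with RLE size factors (adjusted p = 0.00822), with sums per library (adjusted p = 0.00167) and over cells with more than 3000 transcripts (adjusted p = 0.0387). Sums per library count libraries that share a plate as replicates. Against the microglial gate, 8 genes were higher in mural and 7 in endothelial cells (18.8% and 18.7% of all genes), and none was lower (18.9% and 17.5%). For most of the set the microglial sums hold 1 to 18 transcripts, so no fold is given. Of those calls 5 and 3 were left after cells of neural-like clusters were removed from the mural and endothelial gates. These were 15 of 210 mural cells and 7 of 225 endothelial cells, and 0 of 128 microglial cells. The 15 cells carried 71.5% of the mural gate's Tubb3 transcripts, 80.0% of its Dcx and 81.0% of its Dpysl3, but 13.7% of its Tuba1a, 22.2% of its Stmn1 and 33.2% of its Map1b. Without them, pooled mural Tubb3 was 9.68 CPM in place of 31.6, and Map1b 268 in place of 374. The 7 endothelial cells carried 76.7% of that gate's Tubb3 and 88.9% of its Gap43.

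The share of cells with at least 1 transcript was also counted. In the neural gate, Tuba1a was found in 99.2% of 123 cells (95% exact Clopper-Pearson interval 95.6 to 100), Stmn1 in 98.4%, Map1b in 95.1%, Dpysl3 in 86.2%, Tubb3 in 73.2% (64.4 to 80.8), Dcx in 67.5% (58.4 to 75.6), Stmn2 in 61.8%, Gap43 and Mapt in 54.5% each and Ina in 47.2% (38.1 to 56.4). In the microglial gate, which should lack neuronal transcripts and whose cells were deeper, the share was 0.781% for Tubb3, Dcx and Ina (1 of 128 cells each, 0.0198 to 4.28), 1.56% for Mapt, 2.34% for Stmn2 and Dpysl3 and 3.12% for Gap43. It was 11.7% for Map1b, 83.6% for Stmn1 and 97.7% for Tuba1a. With every cell thinned to 1500 transcripts, neural Tubb3 was found in 58.5% and Ina in 26.8% of cells, and microglial Tuba1a in 77.3% and Stmn1 in 31.2%. Tubb3 was found in 8.57% of mural and 5.33% of endothelial cells, above the microglial share. These intervals cover counting error only. In 1056 well barcodes that the wild-type libraries did not use, with a median of 95.02 transcripts each, Tubb3 was found in 1.23%. Such barcodes are far shallower than cells, so the share cannot be set against theirs. As a level, Tubb3 stood there at 119.9 CPM, above the pooled mural (31.6), endothelial (18.01) and microglial (0.73) gates and below the neural gate (847). The part of such stray transcripts in the low levels of the other gates was not tested.

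The neural gate held both progenitors and young neurons. Clustering without the gates put 121 of its 123 cells into neural-like clusters, 80 of them young-neuron-like (clusters 8 and 9) and 41 progenitor-like (mostly cluster 5). The 10 genes were left out of the clustering and of the cluster names, but the clusters were built from other genes of the same cells, so the levels that follow are a description and carry no test. All 10 genes were higher in the young-neuron-like cells on each of the 3 plates, but by very different amounts. The share of all genes with this order was not counted, so nothing particular to the set is read from it. Ina was at 558 to 786 CPM in young-neuron-like cells and 0 to 9.06 in progenitor-like cells, and a transcript was found in 70.0% of 80 against 4.88% of 41 cells. Mapt was 846 ± 120 against 30.3 ± 8.70 (SD, n = 3 plates), Gap43 580 ± 244 against 23.4 ± 20.3, Stmn2 1182 ± 137 against 56.3 ± 36.0 and Dcx 837 ± 103 against 63.9 ± 56.7.

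The remaining 5 were shared more evenly. Tubb3 was 1151 ± 287 against 219 ± 3.496 (a ratio of 5.25) and was found in 93.8% and 36.6% of cells. Dpysl3 had a ratio of 4.10, Map1b of 2.73 (2413 ± 196 against 884 ± 29.4), Tuba1a of 2.26 and Stmn1 of 1.87 (2699 ± 66.9 against 1445 ± 197). A young-neuron-like cell held transcripts of a median of 10 of the 10 genes and a progenitor-like cell of 5, or 7 and 3 after thinning to 1500 transcripts. Together the 10 genes made up 2.07% and 0.710% of all transcripts.

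**Figure D4:**
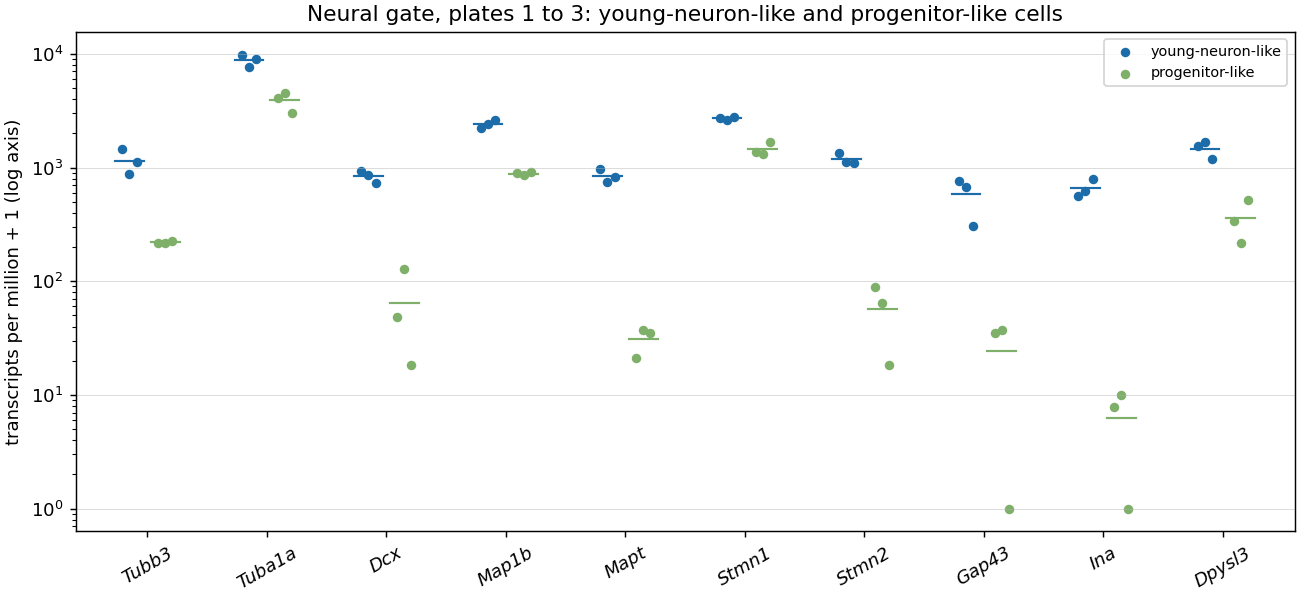
CPM plus 1 (log axis) of the 10 genes in the young-neuron-like and progenitor-like cells of the neural gate, with a point for each of plates 1 to 3 and a bar at the mean. The gap is widest for Ina (655 against 5.28 on average) and narrowest for Stmn1 (2699 against 1445).

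The pair of young-neuron-like clusters was also set side by side. Cluster 8 (38 cells of the gate) was led by Tfap2b, Gad1 and Nrxn3, and cluster 9 (42 cells) by Neurod6, Neurod2 and Tbr1. In values pooled over the plates, all 10 genes were higher in cluster 8. These values have no spread between plates, and the share of all genes higher in that cluster was not counted. They are a description only. Ina stood at 864 and 339 CPM, Tubb3 at 1538 and 789.9, Gap43 at 927 and 469 and Mapt at 1112 and 605. The values were closer for Map1b (2495 and 2172), Stmn1 (2954 and 2398) and Dcx (907 and 861).

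Among the companion genes in single cells, where 22.5% of all genes tested were higher and 17.3% lower, all 6 stathmin and CRMP relatives were higher in the neural gate than in the rest by edgeR. Stmn3 (6.20), Dpysl5 (5.44), Crmp1 (5.37), Stmn4 (5.09) and Dpysl4 (4.89) had log2 differences of the sign seen in bulk, and Dpysl2 (1.40, adjusted p = 1.66e-06) did not. Of the tubulins, 7 of 13 could be tested. Tubb4a (2.93), Tubb2a (2.76) and Tubb5 (1.49) were higher, Tubb6 (-8.45) and Tuba1c (-1.26) lower. Tubb2b, Tuba1b and Tubb1 were not analysed here in the single cells. Higher in the neural gate were 10 of 15 microtubule-associated proteins tested, 10 of 12 growth cone membrane genes, 10 of 15 motors and dynein regulators, 8 of 13 tubulin folding, modification and severing genes and 9 of 12 kinases and phosphatase subunits. Of these 5 lists 1 gene, the motor regulator Ndel1 (-0.81), was lower. The tubulin cofactors Tbcb (0.99, adjusted p = 0.000945) and Tbcc (1.12, adjusted p = 0.0181) were higher here by edgeR and lower in bulk (-0.89 and -1.44). Actin regulators were again divided, 5 higher and 5 lower of 14, and of 4 filament genes tested Nefm (4.30) was higher and Nes (-0.76) lower.

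All wild-type cells were on plates 1 to 3 and all knockout cells on plates 4 to 6. Genotype and set of plates therefore cannot be told apart in any value below. The plates labelled Mof Knockout carried no gate, so neural cells of both genotypes were taken from the clusters, whatever their gate. Of the 158 wild-type cells, 121 came from the neural gate, 15 from the mural, 7 from the endothelial and 15 from the PDGFRb medium or low gate, and of the 68 that were progenitor-like, 41 came from the neural gate. Neural-like clusters held 82, 60 and 16 cells on wild-type plates 1 to 3 and 61, 112 and 38 on plates 4 to 6. On plate 4, 59 of the 61 were progenitor-like, most of them in clusters 0 and 7 rather than in cluster 5, and the share of young-neuron-like cells was 3.28%, beside 50% to 66.7% on wild-type plates and 55.4% and 71.1% on plates 5 and 6. Kat8, the targeted gene, was at 16.3, 17.6 and 17.5 CPM over all wild-type cells and 12.7, 10.4 and 11.2 on plates 4 to 6. These ranges did not overlap, from 5 to 46 transcripts a plate, and the share of all genes without overlap was not counted. The sums mix cell classes in different shares, with 247 mural-like of 337 cells on plate 4 and 267 endothelial-like of 350 on plate 6. The part of this mixture in the Kat8 values was not tested. In the neural-like cells Kat8 was at 24.7, 28.1 and 10.2 against 5.06, 7.65 and 26.1, and plate 6 lay within the wild-type range (-1.13 on the log2 scale, adjusted p = 0.907, edgeR). The deleted exons were not given, and a 3′ count need not see them.

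No gene of the set was called in the neural-like cells (0 of 10, against 0% of 7619 genes), in the young-neuron-like cells (0 of 10, against 0.103% higher and 0.0516% lower of 5817 genes) or in the progenitor-like cells (0 of the 6 that passed the filter, against 0% of 4191 genes). Unadjusted p was below 0.05 for 1, 2 and 1 of them by edgeR and for 1, 3 and 2 by DESeq2, which called none either. Over all genes it was below 0.05 for 354 of 7619, 396 of 5817 and 121 of 4191 by edgeR. By DESeq2, which tested all 10 genes of the set each time, it was below 0.05 for 208 of 18920, 97 of 16717 and 107 of 17093 genes. With wild-type cells of the neural gate only, no gene of the set was called either. In neural-like cells, plate 4 stood apart from plates 5 and 6. Tubb3 was at 785, 652 and 540 CPM on wild-type plates and at 77.6, 673 and 731 on plates 4, 5 and 6. Dcx was at 511, 586 and 285 against 20.2, 369.8 and 739, and Stmn2 at 699.9, 750.4 and 378 against 23.6, 577 and 683. Tuba1a did not share this pattern, at 7216, 6605 and 5057 against 8389.6, 8341 and 8962.

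Within young-neuron-like cells, which plate 4 lacked (2 cells), the plates overlapped for most of the set. Tubb3 was at 1365, 914 and 1128 on wild-type plates and 1273 and 1034 on plates 5 and 6, Dcx at 933, 844 and 761 against 712 and 1062, and Map1b at 2292, 2467 and 2515 against 2007 and 2459.8. Stmn1 (2713, 2684 and 2683 against 3499 and 3578), Tuba1a (9472, 7757 and 8631 against 11018 and 10441) and Dpysl3 (1560.3, 1697 and 1185 against 1893 and 2104) had both knockout plates above all wild-type plates, which makes 3 of 10 genes against 9.90% of all genes tested. Their log2 differences were 0.46 ± 0.19 for Stmn1 (SE, adjusted p = 0.711), 0.39 ± 0.19 for Tuba1a (adjusted p = 0.736) and 0.46 ± 0.20 (SE) for Dpysl3 (adjusted p = 0.72, edgeR). The differences of the 10 genes ran from -0.07 (Gap43) to 0.46, with SE of 0.19 to 0.26, so changes of this size and below were not detectable. On sums simulated with a fixed spread set in advance for all genes, 10 of 100 genes changed 2-fold and 100 of 100 changed 8-fold were recovered. That spread was not taken from these 10 genes, so the recovered numbers do not give a detection limit for them.

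Of the companion genes, 1 of 94 tested in young-neuron-like cells was called, Tuba1c (2.92 ± 0.60, SE, adjusted p = 0.0482, edgeR), whose reads can be shared with Tuba1a. Its adjusted p was 0.0535 with another size factor, 0.142 without plate 6, 0.907 without plate 1, 0.89 without plate 2 and 0.0877 without plate 3. With the other clustering resolutions the difference was 1.47 and 1.48 (adjusted p of 0.749 and 0.784), and adjusted p had a range of 0.000537 to 0.99982 across the alternatives.

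In the progenitor-like cells, Tuba1a was at 4744, 4360.1 and 3034 CPM on wild-type plates and at 8484, 5686 and 6178 on plates 4 to 6, again without overlap (0.63 ± 0.26, SE, adjusted p = 0.9999, edgeR), as the only 1 of the 6 genes tested, against 5.70% of all genes tested. Tubb3 was at 149, 142 and 208 against 55.2, 78.4 and 161 (-1.0 ± 0.47, adjusted p = 0.9999, edgeR). Mapt, which was too low for the fit, was at 48.5, 29.6 and 31.9 against 10.3, 8.71 and 10.7, from 15, 5 and 2 against 6, 4 and 1 transcripts. On plates 3 and 6 these are below the level of 3 transcripts (47.9 and 32.2 CPM), so no difference is read from them. Map1b was at 1016, 837 and 959 against 1038, 872 and 871. Different clusters hold these cells on plate 4, and the part of that in the values was not tested.

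**Figure D5:**
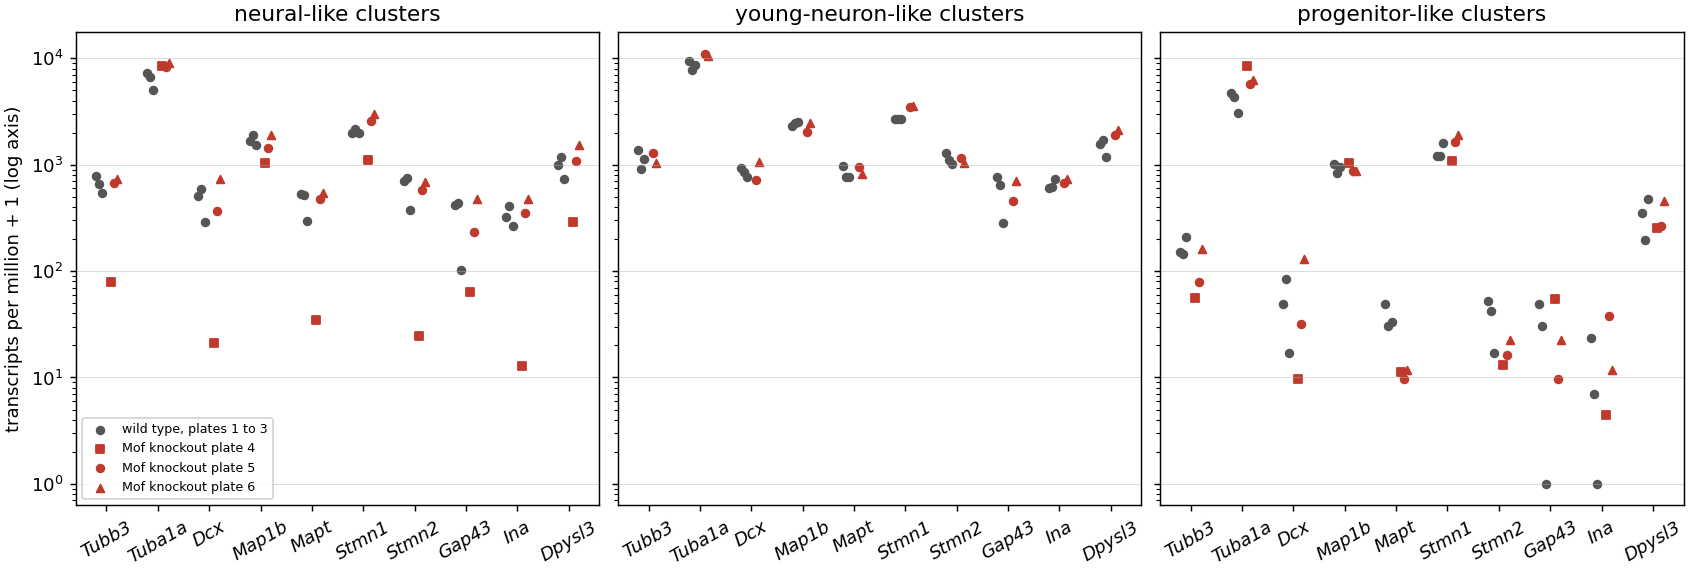
CPM plus 1 (log axis) of the 10 genes in neural-like, young-neuron-like and progenitor-like clusters, with a point for each plate (wild-type plates 1 to 3, grey; plates 4 to 6 labelled Mof Knockout, red). Plate 4 is the lowest of the 6 plates for 9 of the 10 genes (all but Tuba1a) among neural-like cells, where 59 of its 61 cells were progenitor-like, and has no point among young-neuron-like cells. The share of all genes lowest on plate 4 was not counted.

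The knockout plates also held 247 mural-like cells (plate 4, with 7 more on plate 6), 40 microglia-like cells (plate 5) and 267 endothelial-like cells (plate 6, with 2 more on plate 4). Since each class came almost wholly from 1 knockout plate, values are set side by side with no test. Mural-like Tuba1a was at 3008, 2298 and 2987 CPM on wild-type plates against 3368 on plate 4 and 2853 in the 7 cells of plate 6. Mural-like Map1b was at 176, 329 and 159.8 CPM against 165 on plate 4 and 149 on plate 6. Endothelial-like Stmn1 was at 349.8, 390.02 and 150.03 against 493 on plate 6, and Map1b at 209.6, 121 and 390.2 against 179. Microglia-like Tubb3 was at 3.08, 0 and 0 against 14.6 on plate 5, from 2, 0 and 0 against 5 transcripts, and the wild-type values are below the level of 3 transcripts (4.62, 5.16 and 59.1 CPM). Microglia-like Stmn1 was at 276, 330.3 and 138 against 359.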

How the data were processed

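Gene-level bulk values were deposited by the authors as DESeq2-normalized counts (a signal on the scale of reads divided by a size factor for each library). The submitters' processing notes name BWA 0.6.2-r126, STAR, featureCounts, DESeq2 and mm10. Low values gave back whole reads in 124078 of 124078 cases (tolerance 0.01), so edgeR and DESeq2 could be run on reads as alternatives. The deposited single-cell values are transcript numbers, that is, molecular identifier counts that the authors corrected for repeated draws. They were rounded to whole numbers after summing. Groups came from the sample labels, gates from the well table and genotype from the series design. No value column was left unmatched.

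Bulk log2(normalized count + 1) values of genes with a mean of at least 10 were fitted in limma 3.58.1 over all 12 libraries. Cells with more than 1500 transcripts were summed by gate or cluster and plate (at least 5 cells) and tested in edgeR 4.0.16 with the quasi-likelihood test, with DESeq2 1.42.0 as an alternative (R 4.3.3). Adjusted p-values are Benjamini-Hochberg values over all genes tested, called below 0.05, and p-values for plates measure the spread between plates only. Clusters were made in scanpy 1.11.5 (2000 variable genes without the 10 genes, 30 components, Leiden resolution 1) and named from marker lists. No doublets were removed. The 23 single-cell libraries share a set of 192 well barcodes, of which each used 96.

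The 10 genes and all lists were chosen with earlier results of these data known. Named are the 10 genes, every tubulin, stathmin and CRMP relative, and the 2 highest and 2 lowest of each companion list by bulk difference. Nes, Tbcb and others outside that rule, given for opposite signs between assays, were named after their values were seen. Each fit was tested on simulated data. Populations of a brain share the animal, so brain was also fitted as a block; residuals of libraries from the same brain correlated at -0.054 to 0.080. Alternatives covered the pseudocount, filters, scaling, tool, depth, clustering resolution and leaving out each library or plate.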

Additional observations from a re-analysis of the deposited data

Results flagged for a closer look

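Map1b is given because the sign of its neural minus mural difference was opposite in every brain and every plate. The bulk mean was -1.25 on the log2 scale (-1.48, -1.88 and -0.39 by brain), and the plates gave 2.27, 2.30 and 3.02. The difference between the assays was not tested. Of the 8836 genes tested in both assays under 1 symbol each, 7.83% had opposite signs in this way for neural minus mural, among them 10 of the 98 companion genes (Dpysl2, Katna1, Map4, Mapre1, Nes, Ppp1r9b, Tbca, Tbcb, Tbcc and Vim). Of the 10 genes described above, Map1b was the one that did. For neural minus the rest, 10.5% of the 8836 genes had opposite signs in every brain and every plate. Among them were 9 of the 98 companion genes (Dpysl2, Mapre1, Mark4, Nes, Tbca, Tbcb, Tbcc, Tmsb10 and Tubg1) and 0 of the 10 genes.

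Cells of the PDGFRb medium or low gate entered no comparison between gates. All 10 genes had more than 3 transcripts in its 23 cells, above the limit that a count of 0 allows, from 4 for Ina to 897 for Tuba1a. In CPM, only Tuba1a (5462 against 2685) and Stmn1 (1044 against 803) stood above the unused well barcodes. The rest of the set stood below them, such as Ina (24.4 against 147.6). The part of stray transcripts in this gate was not tested. Of these cells 15 were in neural-like clusters and so on the wild-type side of the knockout comparison.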

How the results depend on the processing

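In bulk, the counts of called genes in the neural comparisons stayed within 1.5 times the main count under every alternative run, except that Map1b was no longer called lower than mural after quantile normalization (0 genes lower). Map1b was called higher than the rest after quantile normalization (1.30, adjusted p = 0.000716), with scaling to library totals (0.77, adjusted p = 0.0105) and without Mi-340 (adjusted p = 0.0323). Of the 2 genes lower in endothelial than in microglial libraries, 1 was left without a filter on low values, with scaling to library totals and with the brain as a replicate block, and 0 to 2 when 1 library was left out. Leaving out 1 library gave 0 to 1 genes lower in mural than in endothelial libraries. The block also made Map1b pass against endothelial libraries (adjusted p = 0.0445) and ended the call of Ina between endothelial and microglial libraries (adjusted p = 0.0723). With the block, the counts of called genes in the other bulk comparisons did not move.

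In single cells, 1 gene (Tuba1a) was called higher in mural than in endothelial cells with RLE size factors, DESeq2, the plate as a replicate block (adjusted p = 0.00114), more than 3000 transcripts, sums per library, without Gm10800 and mitochondrial genes, and without neural-like cells in the other gates, an alternative chosen after seeing the data. Leaving out 1 plate gave 0 to 2. Against microglia, 8 genes were higher in mural cells and 5 were with DESeq2 or without neural-like cells, and 4 to 9 with 1 plate left out. For endothelial cells 7 became 3 under both, and 3 to 7 with 1 plate left out.

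Among knockout values that were not called, Stmn2 in neural-like cells turned to 0.0028 without plate 4 (range -0.96 to 0.0028 with 1 plate left out), and Gap43 in young-neuron-like cells to 0.029 with DESeq2, 0.16 without plate 5 and 0.14 without plate 1 (range -0.28 to 0.16). Thinning to 1500 transcripts moved neural shares of cells to 58.5% for Tubb3, 45.5% for Dcx, 78.9% for Map1b, 29.3% for Mapt, 88.6% for Stmn1, 44.7% for Stmn2, 28.5% for Gap43, 26.8% for Ina and 63.4% for Dpysl3, and microglial shares to 0% for Tubb3, Dcx, Mapt, Stmn2, Ina and Dpysl3, 77.3% for Tuba1a, 1.56% for Map1b, 31.2% for Stmn1 and 0.781% for Gap43. With more than 3000 transcripts, neural Map1b was found in 99.1% of cells. Its log2 ratio within the neural gate was 1.56 at resolution 0.5 and 1.44 at resolution 1.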
